A study of Mus musculus with 34 samples.

Results

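The 18 muscle libraries described here, of 34 in the series, ask how much of the transcript change caused by losing the insulin and IGF-1 receptors in skeletal muscle is still there when the FoxO transcription factors are lost with them. They were chosen by the genotype in their titles, and all 13646 genes that passed a filter on low counts were compared, of 46071 in the count table. MIGIRKO mice (6 libraries) lacked the insulin receptor gene Insr and the IGF-1 receptor gene Igf1r in muscle, and QKO mice (7 libraries) lacked the same receptors together with Foxo1, Foxo3 and Foxo4. IRIGFRlox (3 libraries) and Qlox (2 libraries) were the floxed littermates of the MIGIRKO and QKO colonies, which carried the floxed alleles without the deletion. Deletion was driven by Acta1-Cre, a skeletal muscle actin promoter, so the other cells of muscle keep these genes. The mice were males of a mixed C57Blk6, C57Blk6J and 129 background, each genotype was bred as its own colony, and the submitters noted that the Nnt gene was heterozygous in MIGIRKO and IRIGFRlox and mixed in QKO and Qlox. Ages were not given in the sources used here. RNA came from a powdered mix of quadriceps and gastrocnemius, muscles made mostly of fast fibers. The title of the series asks about mitochondrial complex I. Each library is 1 labelled sample, and the p-values measure the spread between these samples.

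Insulin and IGF-1 receptors are tyrosine kinases that act through IRS proteins, PI3K and Akt. Akt phosphorylates FoxO1, FoxO3 and FoxO4 and keeps them out of the nucleus, so receptor loss releases factors that drive genes of protein breakdown, growth arrest and fasting metabolism in muscle. FoxO proteins bind DNA elements that contain the letters GTAAACA and are best known in muscle for switching on the atrophy ubiquitin ligases.

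The central quantity was the difference of effects, which is the log2 change from Qlox to QKO minus the log2 change from IRIGFRlox to MIGIRKO. A positive value means that the change in QKO lay above the change in MIGIRKO. A gene was called at a Benjamini-Hochberg adjusted p under 0.05 in edgeR's quasi-likelihood test, adjusted over all tested genes. Genes called in MIGIRKO were then sorted. A gene was opposed if the difference of effects was called with the sign opposite to the MIGIRKO change. It was enlarged if the difference was called with the same sign, and kept if the QKO change was called with the same sign while the difference was not called. All others were undecided.

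The libraries held 1499025 to 7581198 counts, with the fewest in QKO 5. Levels are given as CPM, edgeR's read counts scaled to library size and not to gene length. The scaling factor averaged 1.23 ± 0.054 (SD, n = 6) in MIGIRKO and 0.94 ± 0.096 (SD, n = 7) in QKO, against 0.876 in IRIGFRlox and 0.902 in Qlox. This scaling matters for direction: with plain library totals the median gene moved by 0.49 in MIGIRKO, 0.06 in QKO and -0.43 for the difference, all on the log2 scale. Every direction below is relative to the scaled totals. A pair of libraries stood apart. QKO 6 had summed immune cell markers of 2880 CPM, the highest of its group, and across genes it correlated best with MIGIRKO 6 (r = 0.966). MIGIRKO 6 correlated best with a MIRKO library, from mice that lack the insulin receptor only (r = 0.976), and the opposed genes defined below were shifted least in it of the 6 MIGIRKO libraries. Correlations across genes within a pair of libraries are descriptions, since genes are not independent.

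The deleted genes were read first. Insr was at 171, 159 and 191 CPM in IRIGFRlox and at 163 and 141 CPM in Qlox. It ran from 40.7 to 69.8 CPM in MIGIRKO (median 52.2) and from 27.8 to 46.1 CPM in QKO (median 39.5), so neither knockout overlapped its controls. The fall was -1.68 ± 0.15 (SE) in MIGIRKO and -1.99 ± 0.16 in QKO on the log2 scale, and the difference of -0.31 was not called (adjusted p = 0.46). Foxo4 was at 213, 161 and 138 CPM in IRIGFRlox, 77.1 to 142 CPM in MIGIRKO (median 97.5), 144 and 160 CPM in Qlox and 5.08 to 10.2 CPM in QKO (median 5.64). Its QKO libraries lay far below all others, with a log2 change of -4.57 ± 0.19 (adjusted p = 2.8e-18). Foxo1 fell by 2.98 on the log2 scale in QKO (adjusted p = 4.9e-06), to 12.6 to 28.3 CPM from 132 and 148 CPM in Qlox, while IRIGFRlox held only 30.6 to 81.1 CPM.

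Whole-gene counts did not show every deletion. Foxo3 was at 79.7 and 103 CPM in Qlox and at 93.1 to 136 CPM in QKO, a log2 change of 0.29 (adjusted p = 0.71). Igf1r ran from 16.5 to 20.3 CPM in IRIGFRlox and from 15.1 to 25.7 CPM in MIGIRKO, a change of 0.00 on the log2 scale (adjusted p = 0.99), whereas in QKO it fell by 1.09 (adjusted p = 0.027), to 4.01 to 11.9 CPM from 16.7 and 18.6 CPM. Counts over all exons include those outside a deleted stretch, so a level that stayed up checks neither label. Foxo6, the FoxO gene that no group was labelled as lacking, went the other way. It was at 6.56, 7.46 and 3.42 CPM in IRIGFRlox, 1.44 to 2.47 CPM in MIGIRKO, 2.3 and 5.73 CPM in Qlox and 5.67 to 10.2 CPM in QKO, with a difference of 2.33 ± 0.47 (adjusted p = 0.004; 0.08 without Qlox 1).

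Receptor loss alone changed 4603 genes (33.7% of those tested), with 2321 higher and 2282 lower. In QKO, labelled as lacking FoxO1, FoxO3 and FoxO4 as well, 69 genes were called (0.506%), 7 higher and 62 lower, although 1579 had an unadjusted p under 0.05. The difference of effects was called for 786 genes (5.76%), 493 of them higher (3.61%) and 293 lower (2.15%). Plain library totals gave 1404 called genes, with 166 higher and 1238 lower, so the split by direction rests on the scaling. Of the 4603 receptor-loss genes, 717 were opposed (15.6%; 5.25% of all tested genes), 31 were kept, 4 were enlarged and 3851 were undecided. The opposed genes were 470 that were lower in MIGIRKO (20.6% of the lower genes) and 247 that were higher (10.6% of the higher genes). Because the same MIGIRKO change selects these genes and enters the difference, the counts are descriptions.

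**Figure D1:**
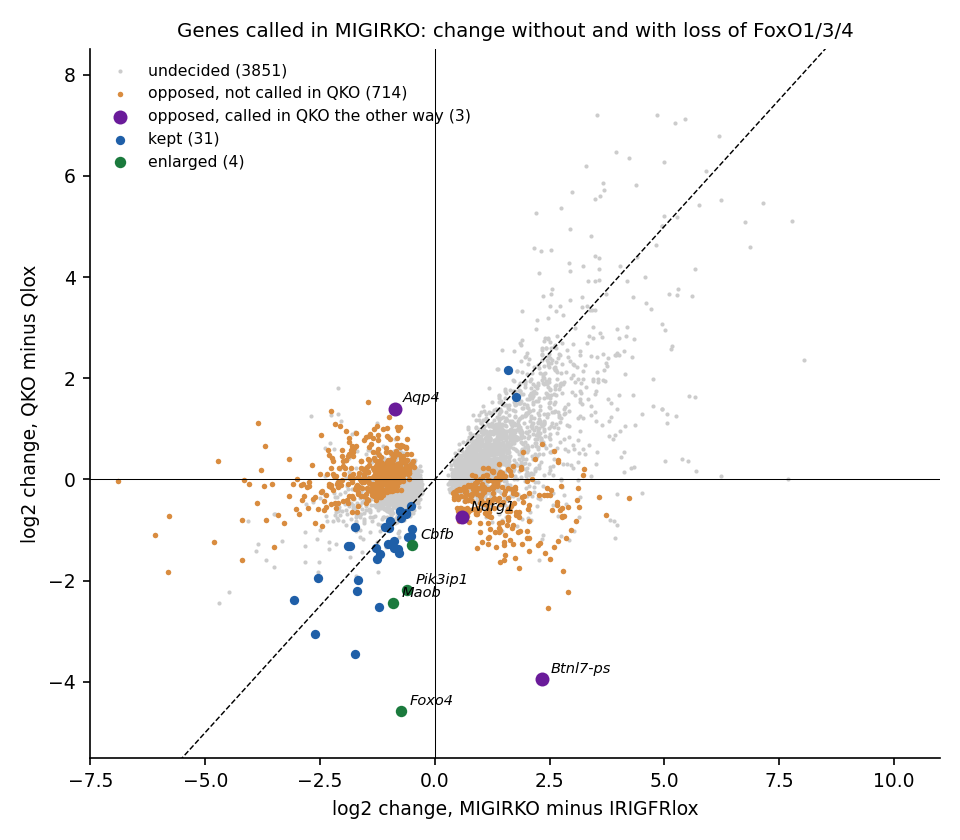
Log2 change from Qlox to QKO (vertical axis) against log2 change from IRIGFRlox to MIGIRKO (horizontal axis) for the 4603 genes called in MIGIRKO, 1 point per gene, coloured by class. Points on the dashed line would have equal changes; orange marks the 714 opposed genes that were not called in QKO, and the 31 kept genes lie on both sides of the line.

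The counts depended on single libraries. Leaving out Qlox 1 or Qlox 2 left 132 and 113 genes called for the difference, and leaving out QKO 6 raised the count to 1384, MIGIRKO 6 to 1201. Without IRIGFRlox 1 it was 450 and without IRIGFRlox 3 it was 496. In simulated counts of this design the procedure recovered 16.9% of differences of 2-fold and 65.6% of differences of 4-fold. The simulation gave each gene the same mean in every group and changed a small set of genes, in QKO only. In the data many genes changed in MIGIRKO, so these shares need not hold for them. Of the 81 genes named here as called for the difference, 17 were called in each omission of 1 library: Foxo1, Foxo4, Aqp4, Ndrg1, Grb14, Tbc1d1, Igfbp5, Fndc5, Slc15a5, Cdh4, Odf3l2, Slc30a2, Mb, Plin1, Slc7a10, Slc36a2 and Castor2.

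The QKO change was a median 0.22 of the MIGIRKO change over the 4603 genes, 0.15 for genes lower in MIGIRKO and 0.30 for genes higher. Over all tested genes these medians were 0.19, 0.10 and 0.29. The MIGIRKO change chose the 4603 genes and is the denominator, so these shares are descriptions. For 995 genes (21.6%) the 95% confidence interval of the QKO change ended below 50% of the MIGIRKO change. Over all tested genes this held for 12.3%. Among the 132 genes more than 4-fold lower in MIGIRKO the median share left was 0.13, and 77 of them (58.3%) were opposed. Among the 540 genes more than 4-fold higher it was 0.52, and 52 (9.63%) were opposed. No test compared these shares.

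The difference of effects has 2 components, the gap between the knockouts and the gap between their controls. For the opposed genes a median 0.78 of it lay between QKO and MIGIRKO and 0.22 between Qlox and IRIGFRlox. For the genes higher in MIGIRKO the shares were 0.64 and 0.36, and for those lower 0.83 and 0.17. Over the 4603 genes called in MIGIRKO they were 0.81 and 0.19, and over all tested genes 0.65 and 0.35. Qlox stood from IRIGFRlox in the direction of the MIGIRKO change in 609 of the 717 opposed genes (84.9%). This held for 96% of those higher in MIGIRKO and 79.1% of those lower. It held for 65.1% of the 4603 genes and 59.3% of all tested genes. QKO against MIGIRKO was called with the same sign in 685 of the 717 (95.5%), where 30.2% of all tested genes were called in either direction. Qlox against IRIGFRlox was called for 4 genes overall (0.0293%; 0.00733% lower), 742 at an unadjusted p under 0.05, and for 1 of the opposed genes. Over the 4603 genes called in MIGIRKO, QKO against MIGIRKO was called with the sign of the difference in 60.9%. In 317 opposed genes (44.2%) no MIGIRKO library overlapped any library of the other 3 groups, which held for 15.6% of the genes called in MIGIRKO and 5.39% of all tested genes. The opposed genes were chosen on these same libraries, controls included, so all these shares are descriptions.

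Library numbers fell into 6 runs of consecutive numbers, and none of them held both control groups. Within the 6 runs the median QKO level of the 470 lower genes was 0.65 to 1.25 above MIGIRKO on the log2 scale, and that of the 247 higher genes was -1.15 to -0.54. In the 3 runs with IRIGFRlox the lower genes stood -1.18 to -0.88 from it in MIGIRKO. In the 2 runs with Qlox they stood 0.10 (run 4) and -0.34 (run 5, which holds QKO 6) from it in QKO. The genes were chosen on these libraries for such a gap, so its sign within the runs is a description. With the runs as a block 539 genes were called, 397 of them among the 786.

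The changes in the other colonies were not used to sort these genes, although their libraries shared the filter and the estimate of spread, and with the 4 groups fitted alone 468 genes were opposed. MIRKO libraries, with the insulin receptor lost alone, had the sign of the MIGIRKO change in 689 of the 717 opposed genes (96.1%) at a median 0.48 of its size, against 93.2% and 0.46 for all 4603. Calls with that sign were made in MIRKO for 95 of the opposed genes and for 162 of all 4603. In MIRKO 1.25% of all tested genes were called. MIGF1RKO, with the IGF-1 receptor lost alone, shared the sign in 71.8% at a median 0.12 of the size. For all 4603 these values were 69.1% and 0.14. In MIGF1RKO 16 opposed genes and 62 of all 4603 were called in the MIGIRKO direction. There 0.616% of all tested genes were called (0.352% lower). QKO shared the sign of the MIGIRKO change in 30.7% of the opposed genes, 71% of the 4603 and 60.2% of all tested genes. The QKO libraries enter the difference that defines the opposed genes, so a low share there follows from that choice and is a description.

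**Figure D2:**
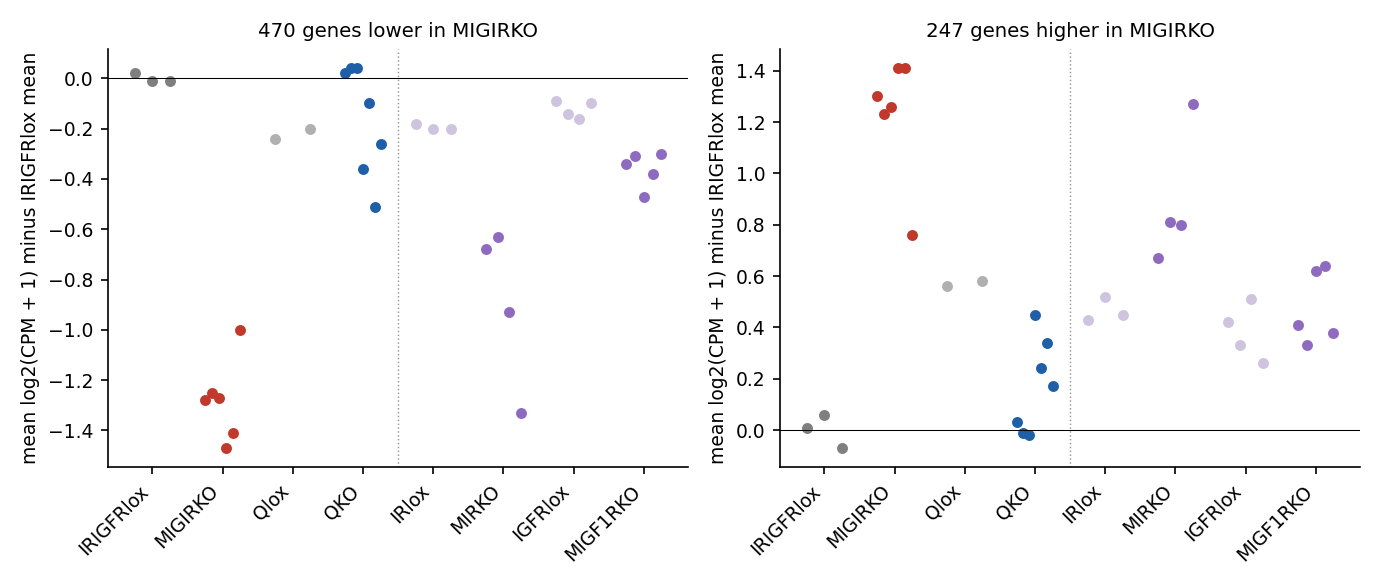
Mean log2(CPM + 1) of the opposed genes in each library, relative to the IRIGFRlox mean; left the 470 genes lower in MIGIRKO, right the 247 higher, 1 point per library, with the 16 libraries of the other colonies right of the dotted line. For the lower genes MIGIRKO lay at -1.47 to -1.0, QKO at -0.51 to 0.04 and MIRKO at -1.33 to -0.63; for the higher genes Qlox lay at 0.56 to 0.58, above QKO at -0.02 to 0.45.

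Of the opposed genes, 3 were called in QKO in the direction opposite to MIGIRKO. Aqp4, the water channel of the fast-fiber membrane, was at 43.0, 60.1 and 79.1 CPM in IRIGFRlox, 22.0 to 42.7 CPM in MIGIRKO (median 32.8), 51.8 and 36.0 CPM in Qlox and 106 to 141 CPM in QKO (median 111). It fell by 0.87 with receptor loss and was 1.40 ± 0.26 higher in QKO, a difference of 2.27 ± 0.33 (adjusted p = 0.00018). The QKO libraries lay above every other library of the 4 groups. Ndrg1, a stress-responsive gene, was 35.3 to 37.1 CPM in IRIGFRlox and 44.5 to 64.0 CPM in MIGIRKO, but 55.5 and 66.0 CPM in Qlox and 30.4 to 50.3 CPM in QKO, a difference of -1.34 ± 0.24 (adjusted p = 0.0019) to which the gap between the controls contributed 0.76. Btnl7-ps, a butyrophilin-like pseudogene whose reads may be shared with its relatives, had 167 counts in MIGIRKO, 13 in IRIGFRlox, 11 in Qlox and 2 in QKO, and its call was lost without Qlox 2 (adjusted p = 0.072).

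Within the pathway itself, the adaptor Grb14 and the GLUT4 regulator Tbc1d1 fell with receptor loss and were opposed. Of 28 tested members of the insulin and IGF signalling list, 5 were opposed and the median difference was 0.05, beside 0.01 over all genes. Grb14, an adaptor that binds the activated insulin receptor and inhibits it (chr2:64912476-65024987 in GRCm38), was at 18.6, 23.9 and 24.8 CPM in IRIGFRlox, 1.21 to 4.06 CPM in MIGIRKO (median 2.38), 16.4 and 31.9 CPM in Qlox and 15.8 to 31.9 CPM in QKO (median 22.3). Every MIGIRKO library lay below all others. It fell by 3.09 with receptor loss and changed by -0.09 ± 0.32 in QKO, a difference of 3.00 ± 0.47 (adjusted p = 0.00044).

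Tbc1d1, a Rab GTPase-activating protein that holds back GLUT4 until it is phosphorylated, was at 74.9, 68.1 and 117 CPM in IRIGFRlox, 16.3 to 31.4 CPM in MIGIRKO, 73.2 and 100 CPM in Qlox and 70.7 to 138 CPM in QKO. Its difference was 2.36 ± 0.43 (adjusted p = 0.0019).

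Among 9 IGF ligands and binding proteins, Igfbp5, the main IGF-binding protein made by muscle fibers (chr1:72857932-72874884), had the smallest adjusted p. Its levels were 2670, 1890 and 2110 CPM in IRIGFRlox, 533 to 764 CPM in MIGIRKO (median 614), 1770 and 2420 CPM in Qlox and 2130 to 3040 CPM in QKO (median 2350). The log2 change of -1.83 ± 0.17 in MIGIRKO became 0.22 ± 0.20 in QKO, and the difference was 2.04 ± 0.28 (adjusted p = 5e-05). Igfbp4 was 0.88 higher in MIGIRKO and changed by -0.07 in QKO (adjusted p of the difference 0.013; 0.14 without Qlox 2). Igf2, the fetal IGF ligand, was 21.4 to 27.9 CPM in IRIGFRlox, 69.8 to 695 CPM in MIGIRKO (median 635), 29.9 and 27.7 CPM in Qlox and 32.6 to 163 CPM in QKO (median 45.4), and its difference of -3.22 ± 1.01 was not called (adjusted p = 0.056; 0.017 without MIGIRKO 6).

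Of 14 tested muscle-secreted factors, 5 were opposed. Fndc5, the precursor of irisin, was at 127, 157 and 105 CPM in IRIGFRlox, 33.3 to 63.7 CPM in MIGIRKO, 104 and 129 CPM in Qlox and 123 to 198 CPM in QKO, a difference of 1.97 ± 0.31 (adjusted p = 0.00044) with MIGIRKO apart from all others. Mstn, which encodes the growth inhibitor myostatin, fell by 2.85 in MIGIRKO, to 3.74 to 17.0 CPM, and was 34.2 to 88.5 CPM in QKO beside 86.3 and 82.3 CPM in Qlox. Ostn, which encodes musclin, fell by 3.42 in MIGIRKO, and QKO held 3.76 to 14.7 CPM beside 15.4 and 15.1 CPM in Qlox. The calls for Mstn (adjusted p = 0.012) and Ostn (0.0085) rested on both Qlox libraries: without Qlox 1 they were 0.095 and 0.071, without Qlox 2 0.11 and 0.082.

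**Figure D3:**
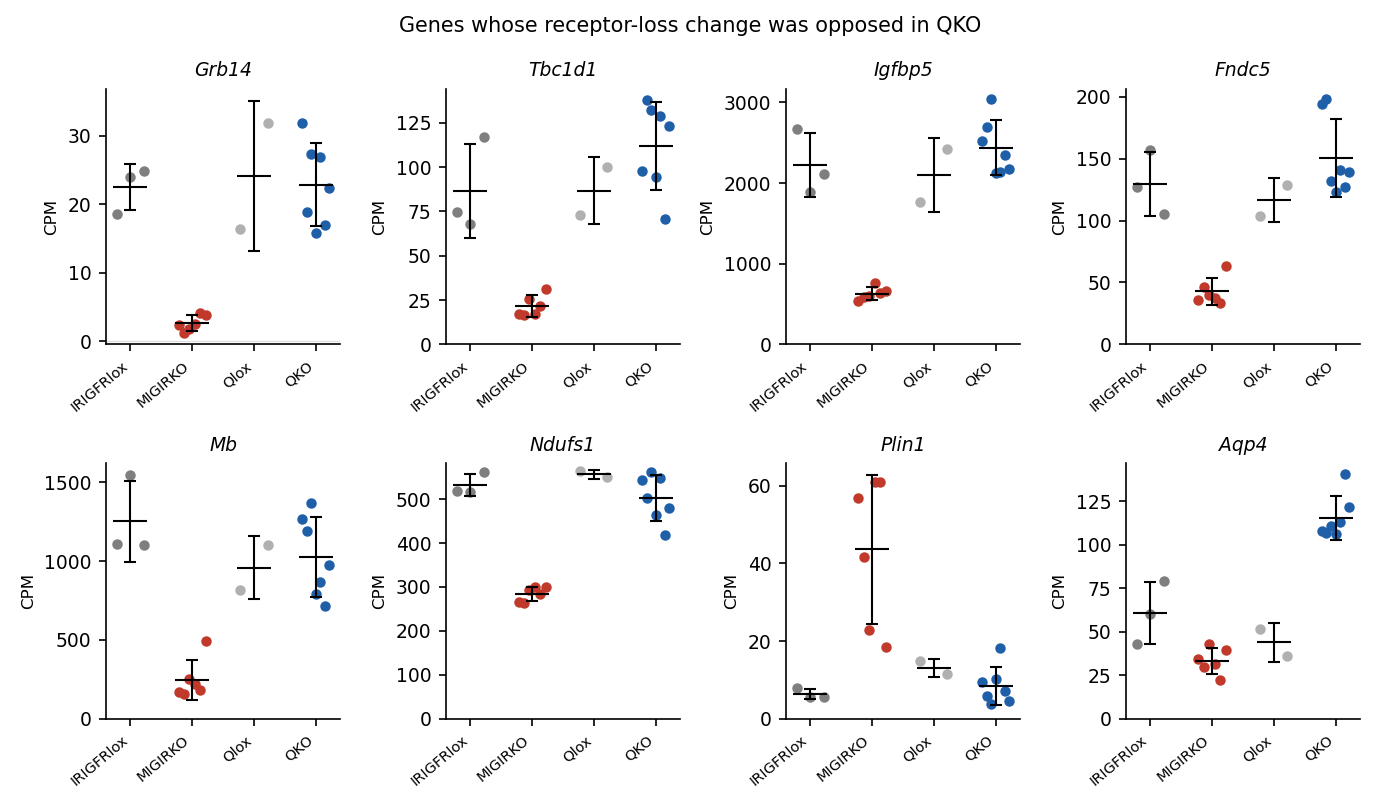
CPM in each library (points), with group mean and SD (bars), for 8 genes whose receptor-loss change was opposed in QKO. In Grb14, Tbc1d1, Igfbp5, Fndc5, Mb and Ndufs1 the 6 MIGIRKO libraries lie below all others, in Plin1 they lie above all others, and in Aqp4 the 7 QKO libraries lie above all others.

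Several genes with large differences had low levels in MIGIRKO. Slc15a5, a peptide transporter family member, was at 22.3, 26.2 and 30.8 CPM in IRIGFRlox, 0 to 0.959 CPM in MIGIRKO, 8.2 and 7.34 CPM in Qlox and 1.16 to 14.7 CPM in QKO (adjusted p = 0.00069), so its Qlox level lay below IRIGFRlox. Cdh4, a cadherin, was 29.3 to 58.5 CPM in IRIGFRlox, 0.321 to 5.89 CPM in MIGIRKO, 36.1 and 50.2 CPM in Qlox and 18.1 to 102 CPM in QKO (adjusted p = 0.0014). Odf3l2, at 0 to 1.54 CPM in MIGIRKO beside 22.1 to 71.2 CPM in QKO, and Slc30a2, a zinc transporter, at 2.16 to 4.49 CPM beside 8.28 to 46.5 CPM, were also opposed. Mss51, a muscle gene linked to mitochondrial metabolism, fell by 4.80 in MIGIRKO and changed by -1.23 in QKO (adjusted p = 0.27). It held 2.71 to 6.78 CPM in MIGIRKO, 231 and 174 CPM in Qlox and 17.7 to 194 CPM in QKO, and its adjusted p of 0.0034 became 0.066 without Qlox 2. Fitted changes this large depend on the few counts left in MIGIRKO, 8 in all for Slc15a5.

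Nuclear genes of the respiratory chain fell with receptor loss, and part of that fall was opposed in QKO. Of 36 tested complex I subunits, 21 were lower in MIGIRKO, none was called in QKO, and 9 were called higher for the difference. All 36 differences were above 0, with a median of 1.10 beside 0.01 over all genes. The list's median was -0.81 in MIGIRKO and 0.38 in QKO, and Qlox stood at a median of -0.47 against IRIGFRlox. Complexes II and III had 5 of 13 opposed, complex IV 2 of 18, complex V 2 of 16 and the mitochondrially encoded mRNAs 3 of 13. The TCA cycle and pyruvate list had 9 of 21, with all 21 differences above 0. Qlox also stood below IRIGFRlox in these lists. The medians were -0.36 for complexes II and III, -0.46 for complex IV and -0.39 for complex V. They were -0.3 for the mitochondrial mRNAs and -0.07 for the TCA list. The general muscle fiber markers had medians of -0.95 in MIGIRKO and 0.14 in QKO over 7 markers, of which 4 were called lower in MIGIRKO and 2 were opposed. Their summed level was 174000 to 192000 CPM in IRIGFRlox, 62400 to 105000 CPM in MIGIRKO, 168000 to 178000 CPM in Qlox and 108000 to 207000 CPM in QKO. Their part in the energy, glycolysis and fiber results was not tested.

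Ndufs1, the largest subunit of complex I, was at 519, 516 and 562 CPM in IRIGFRlox, 264 to 301 CPM in MIGIRKO (median 287), 564 and 550 CPM in Qlox and 419 to 563 CPM in QKO (median 503). MIGIRKO lay below all other libraries, and the difference was 0.76 ± 0.19 (adjusted p = 0.016). Ndufa8, Uqcrfs1, Cyc1, Cox5a and Atp5a1 had differences of 1.11, 1.08, 0.97, 1.02 and 0.96. For Uqcrfs1 the Qlox libraries, at 229 and 238 CPM, lay inside the MIGIRKO range of 140 to 239 CPM. IRIGFRlox held 280 to 397 CPM of it. For Ndufa8, Cyc1, Cox5a and Atp5a1 both Qlox libraries lay above every MIGIRKO library. For Ecsit, a complex I assembly factor, it was 1.16 (adjusted p = 0.0078).

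Ndufc2 had the largest difference of the 9 called subunits (2.21 ± 0.48, adjusted p = 0.008), with another make-up. It was at 103, 142 and 116 CPM in IRIGFRlox, 38.7 to 78.3 CPM in MIGIRKO, 32.5 and 33.9 CPM in Qlox and 45.8 to 103 CPM in QKO. Most of its difference lay between the controls (-1.86, adjusted p = 0.11), and QKO against MIGIRKO was 0.36 (adjusted p = 0.27). The mitochondrially encoded mt-Nd2 and mt-Nd5 had MIGIRKO libraries apart from all others, at 2020 to 3480 CPM and 3200 to 5020 CPM beside 3830 to 7310 CPM and 6530 to 9860 CPM in QKO.

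In the TCA cycle list, Dlat and Pdhx of the pyruvate dehydrogenase complex and Suclg1, a succinyl-CoA ligase subunit, had differences of 0.79, 0.96 and 1.14. Cpt2, which completes fatty acid entry into mitochondria, was the only one opposed of 25 genes of fatty acid use (0.79, adjusted p = 0.013). Over all tested genes 5.25% were opposed. Bckdk and Dbt were among 3 of 18 for branched-chain amino acid breakdown. Among 23 genes of mitochondrial biogenesis and shape 7 were opposed, including Opa1, which fuses the inner membrane (0.93, adjusted p = 0.012), and Esrrb, an estrogen-related nuclear receptor, which was 0.963 to 3.83 CPM in MIGIRKO and 5.58 to 10.7 CPM in QKO and Qlox.

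The energy metabolism counts moved with the settings. With plain library totals 1 complex I subunit and 0 TCA genes were called, although the medians stayed at 0.66 and 0.28, and fatty acid and branched-chain medians turned to -0.11 and -0.08. With the library runs as a block the complex I median was 0.53 and 2 were called, TCA 3, complexes II and III 1, complex V 0 and mitochondrial mRNAs 0. With 1 library left out the complex I list had 0 to 17 calls and the TCA list 0 to 14, the zeros coming without a Qlox library.

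Of 27 tested glycolysis and glycogen genes, 20 were lower in MIGIRKO and 9 were opposed, with 7 called under the run block and 4 under plain totals. The list's median was -0.95 in MIGIRKO and 0.07 in QKO. Pgm1, which links glucose-1-phosphate and glucose-6-phosphate, was at 2260, 1900 and 2040 CPM in IRIGFRlox, 600 to 936 CPM in MIGIRKO, 2220 and 1980 CPM in Qlox and 1560 to 2590 CPM in QKO (difference 1.41 ± 0.32, adjusted p = 0.011). Pgam2, the muscle phosphoglycerate mutase, was 283 to 651 CPM in MIGIRKO and 696 to 1980 CPM in QKO (2.08 ± 0.48, adjusted p = 0.011), and Phkg1, the catalytic subunit of phosphorylase kinase, had a difference of 1.08. Without Qlox 1 the adjusted p of these genes was 0.068, 0.1 and 0.093, and without Qlox 2 it was 0.11, 0.079 and 0.14.

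Contractile and fiber-type genes followed. Mb, the oxygen store myoglobin, was at 1110, 1550 and 1100 CPM in IRIGFRlox, 159 to 490 CPM in MIGIRKO (median 201), 818 and 1100 CPM in Qlox and 717 to 1370 CPM in QKO (median 978). It fell by 2.35 with receptor loss and changed by 0.10 ± 0.31 in QKO, a difference of 2.45 ± 0.43 (adjusted p = 0.0015). Myh4, the myosin of the fastest fibers, ran from 15800 to 33700 CPM in MIGIRKO and from 44500 to 84900 CPM in QKO, beside 73400 to 79100 CPM in IRIGFRlox.

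Of 16 fast-fiber genes 13 fell in MIGIRKO and 3 were opposed: Myh4 (1.31), Ckm, the muscle creatine kinase (1.60), and Pvalb, the calcium buffer parvalbumin (2.18). All 3 lost the call with the run block and without Qlox 1 (adjusted p 0.1, 0.15 and 0.18) or Qlox 2 (0.14, 0.13 and 0.22). The slow-fiber list of 15 was mixed, with 5 called higher and 1 lower for the difference. Tnnc1, the slow and cardiac troponin C, and Atp2a2, the slow calcium pump SERCA2, were not called in either knockout on its own, but QKO held 74.5 to 214 CPM and 630 to 1120 CPM beside 36.4 and 45.6 CPM and 454 and 472 CPM in Qlox (differences 2.48 and 1.30). IRIGFRlox held 35 to 147 CPM of Tnnc1 and 398 to 875 CPM of Atp2a2, which overlap QKO. Both calls were lost with the run block (adjusted p = 0.2 and 0.067), without Qlox 1 (0.2 and 0.11), without Qlox 2 (0.19 and 0.11), with plain totals (0.067 and 0.091) and without IRIGFRlox 2 (0.18 and 0.081). Csrp3, a stretch-sensing Z-disc protein, was 127 to 427 CPM in MIGIRKO and 24.5 to 58.7 CPM in QKO, a difference of -2.88 (adjusted p = 0.019; 0.08 with the run block).

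Fat cell genes rose with receptor loss, and none of them was called in QKO. In bulk muscle, fewer cells of a type and less RNA per cell cannot be told apart. Of 10 adipocyte markers 9 were higher in MIGIRKO, with a median log2 change of 2.06, and 6 were opposed, with a median of -0.52 in QKO. Plin1, the coat protein of fat droplets, was at 7.78, 5.55 and 5.56 CPM in IRIGFRlox, 18.4 to 61.0 CPM in MIGIRKO (median 49.4), 14.8 and 11.5 CPM in Qlox and 3.74 to 18.2 CPM in QKO (median 7.11). The difference was -3.52 ± 0.65 (adjusted p = 0.002). Adipoq, the fat hormone adiponectin, was 30.3 to 70.1 CPM in MIGIRKO and 4.89 to 20.3 CPM in QKO (-3.16 ± 0.63, adjusted p = 0.0041), and Cidec, which enlarges droplets, was 27.1 to 117 CPM and 4.28 to 24.5 CPM.

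Other opposed genes with large negative differences were the amino acid transporters Slc7a10 (-4.00) and Slc36a2 (-3.91), the cytochrome P450 gene Cyp2e1 (-3.93) and the carboxylesterase gene Ces1f (-4.59). Without Qlox 2 the adjusted p was 0.051 for Adipoq, 0.083 for Cidec, 0.18 for Cyp2e1 and 0.26 for Ces1f. The summed adipocyte markers were 630 to 1980 CPM in MIGIRKO, 410 to 960 CPM in QKO, 421 to 795 CPM in IRIGFRlox and 764 to 1200 CPM in Qlox. Their part in the other results was not tested.

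Myelin genes of Schwann cells showed the clearest share between the controls. Of 10 markers 7 were higher in MIGIRKO and 7 were called lower for the difference, with medians of 1.24 in MIGIRKO, -1.03 in QKO and 1.13 from IRIGFRlox to Qlox. Mbp, myelin basic protein, was at 33.6, 52 and 29.3 CPM in IRIGFRlox, 66 to 151 CPM in MIGIRKO, 149 and 88 CPM in Qlox and 28.3 to 116 CPM in QKO (-2.45 ± 0.54, adjusted p = 0.0083). Qlox thus lay in the range of MIGIRKO, and QKO overlapped both IRIGFRlox and MIGIRKO. Mbp and Ncmap (-3.08), also of myelin, lost the call without Qlox 1 (adjusted p = 0.1 and 0.074), and with all 12 floxed libraries as control the Mbp call was lost.

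Of 12 immune markers 11 were higher in MIGIRKO (median 2.34), the QKO median was 1.80, and 0 were called for the difference, whose median was -0.35. Without QKO 5 and QKO 6 the QKO median was 0.88, the median difference was -1.19 and 1 marker was called. Summed immune markers were 136 to 195 CPM in IRIGFRlox, 418 to 1350 CPM in MIGIRKO, 162 to 219 CPM in Qlox and 225 to 2880 CPM in QKO. Csf1r, C1qa and C1qb of macrophages were highest in QKO 6, at 161, 86.0 and 68.6 CPM, and the difference for C1qb was called without that library (-1.77, adjusted p = 0.027). Of 11 fibroblast and matrix markers 7 rose in MIGIRKO and Lum was opposed (-1.40, adjusted p = 0.011; 0.1 without Qlox 1). None of the 10 endothelial, 8 satellite cell or 5 red blood cell markers was called for the difference. With 5.76% called over all tested genes, marker lists this short would hold few calls or none.

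**Figure D4:**
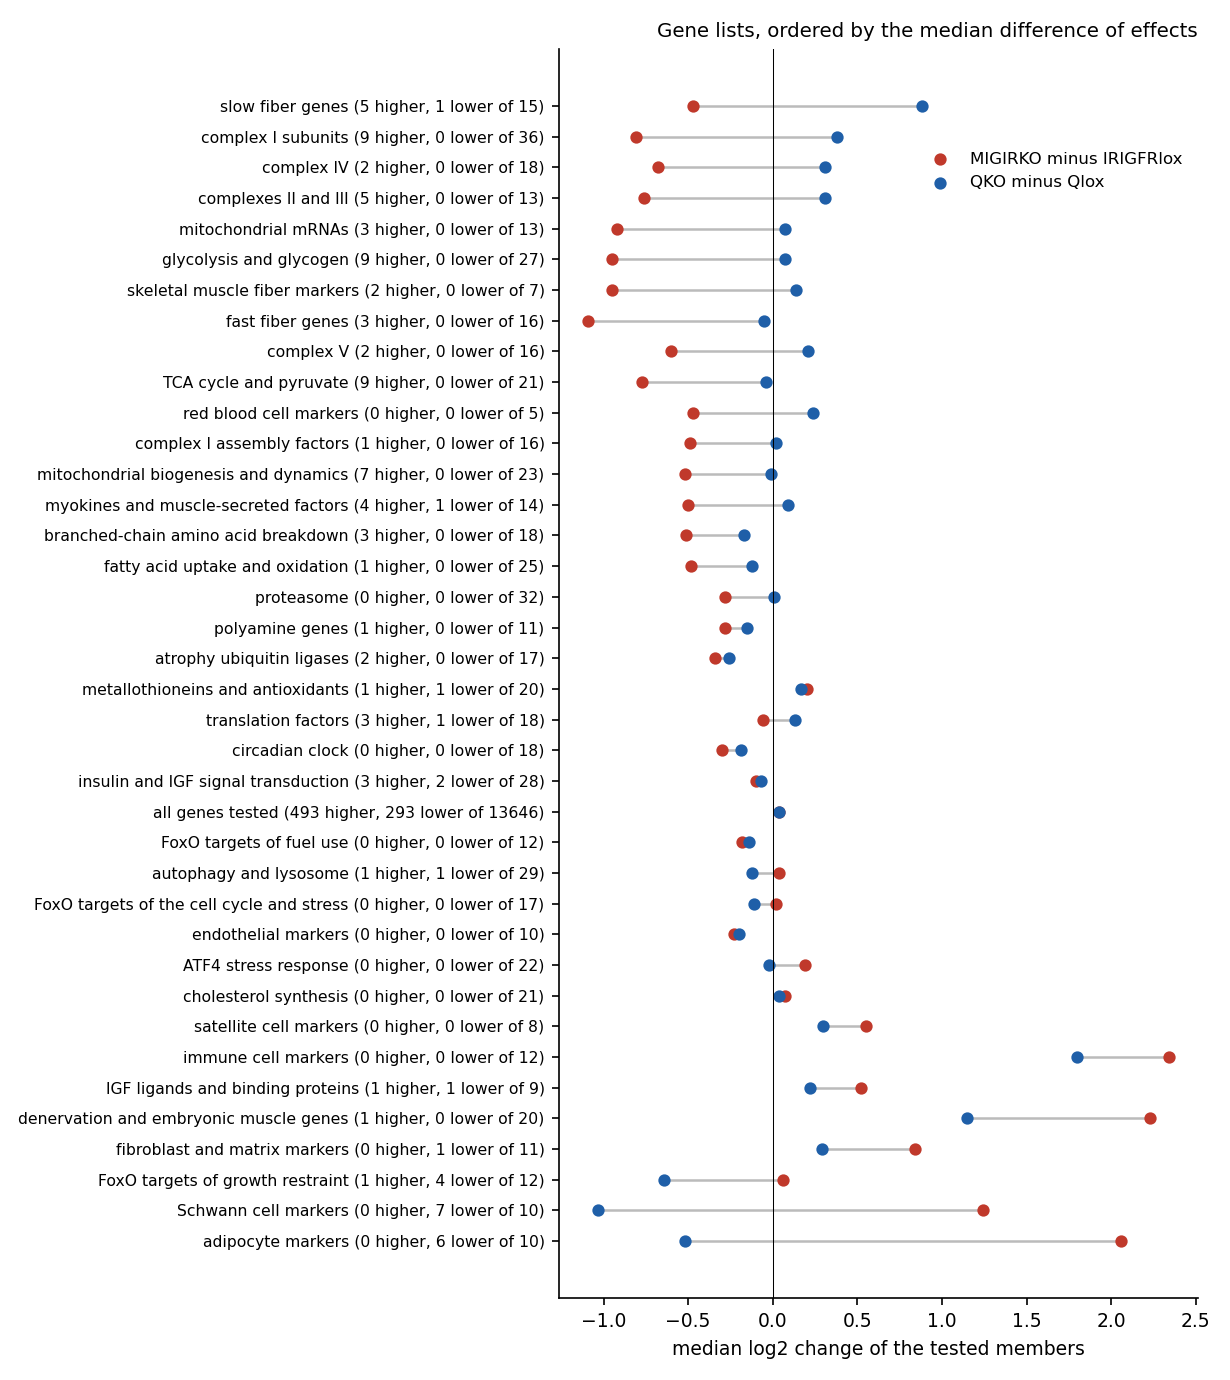
Median log2 change of the tested members of each gene list in MIGIRKO (red) and QKO (blue), with the number of members called higher and lower for the difference of effects in brackets. Energy metabolism and fiber lists have negative medians in MIGIRKO and medians near or above 0 in QKO, adipocyte and Schwann cell lists the reverse, and immune markers stay above 0 in both.

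Within the 3 lists of FoxO targets used here, calls lay in the growth restraint list only. The lists for growth restraint, cell cycle and stress, and fuel use held 41 tested genes. Of these, 1 was called higher and 4 were called lower for the difference, all 5 among the 12 growth restraint genes. Over all tested genes 5.76% were called, 3.61% higher and 2.15% lower. That list's median was 0.06 in MIGIRKO and -0.64 in QKO. In the 17 cell cycle and stress genes the medians were 0.02 and -0.11, and in the 12 fuel genes -0.18 and -0.14. No test compared the lists. With all 12 floxed libraries as control, which is QKO against MIGIRKO, the cell cycle and stress list had 2 called higher and 6 lower. The fuel list had 3 and 2. Castor2, which restrains mTORC1 as an arginine sensor relative (chr5:134099711-134144343), was at 130, 127 and 124 CPM in IRIGFRlox, 93.0 to 130 CPM in MIGIRKO (median 111), 126 and 123 CPM in Qlox and 35.6 to 46.8 CPM in QKO (median 41.8). All 7 QKO libraries lay below all others. It did not pass in MIGIRKO (-0.19, adjusted p = 0.2), fell by 1.60 in QKO (adjusted p = 2.3e-10) and had a difference of -1.41 ± 0.18 (adjusted p = 1.8e-05).

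Sesn1, a leucine-sensing inhibitor of mTORC1, was at 49.6, 45 and 29.7 CPM in IRIGFRlox, 34.1 to 90.0 CPM in MIGIRKO, 46.9 and 89.9 CPM in Qlox and 22.2 to 43.5 CPM in QKO, a difference of -1.57 ± 0.37 (adjusted p = 0.012; 0.26 without Qlox 2). Deptor, an inhibitor inside the mTOR complexes, was 0.85 higher in MIGIRKO and changed by -0.23 in QKO. Eif4ebp1, the translation repressor 4E-BP1, was 0.91 higher in MIGIRKO, at 22.5 to 39.6 CPM, and 7.84 to 13.5 CPM in QKO beside 11.8 and 18.3 CPM in Qlox. Both calls (adjusted p = 0.027 and 0.036) were lost without Qlox 1 (0.079 and 0.074) and without Qlox 2 (0.21 and 0.34). Cdkn1a and Gadd45a rose in MIGIRKO by 1.5 and 1.97, and their differences of -0.86 and -1.76 were not called (adjusted p = 0.39 and 0.17). Sod2, mitochondrial superoxide dismutase, fell by 1.05 in MIGIRKO with a difference of 0.70 (adjusted p = 0.052). Pdk4, the fasting kinase of pyruvate dehydrogenase, was called in neither comparison.

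The promoters of 4 genes show where the FoxO letters do and do not occur. They were chosen after their values were seen, since no gene picked by the rule for promoters held the match: Sesn1 and Castor2 from the FoxO target lists, and Btg1 and Tfb2m as opposed genes that rose and fell in MIGIRKO. Each window runs from 250 bases before to 50 after a RefSeq transcript start in GRCm38.p6, in the direction of the gene, with GTAAACA or its reverse complement TGTTTAC in capitals. The Sesn1 window (chr10:41810324-41810623, plus strand, 1 of 2 promoters listed) holds 1 match 22 bases after the start. The Btg1 window (chr10:96616751-96617050, plus strand) holds 1 match 204 bases before it, the Tfb2m window (chr1:179546227-179546526, minus strand) 1 match 30 bases after it, and the Castor2 window (chr5:134099498-134099797, plus strand) none.
Sesn1: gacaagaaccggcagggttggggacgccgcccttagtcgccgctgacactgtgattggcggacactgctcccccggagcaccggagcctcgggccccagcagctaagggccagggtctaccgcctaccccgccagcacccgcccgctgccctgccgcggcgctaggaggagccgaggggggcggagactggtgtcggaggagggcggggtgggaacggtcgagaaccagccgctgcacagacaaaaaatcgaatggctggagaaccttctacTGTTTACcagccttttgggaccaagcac
Btg1: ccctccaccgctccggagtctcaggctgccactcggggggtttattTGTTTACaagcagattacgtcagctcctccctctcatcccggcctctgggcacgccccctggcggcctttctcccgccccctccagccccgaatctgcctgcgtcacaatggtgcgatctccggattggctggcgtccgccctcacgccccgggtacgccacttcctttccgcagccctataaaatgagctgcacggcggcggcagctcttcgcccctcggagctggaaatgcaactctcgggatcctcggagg
Tfb2m: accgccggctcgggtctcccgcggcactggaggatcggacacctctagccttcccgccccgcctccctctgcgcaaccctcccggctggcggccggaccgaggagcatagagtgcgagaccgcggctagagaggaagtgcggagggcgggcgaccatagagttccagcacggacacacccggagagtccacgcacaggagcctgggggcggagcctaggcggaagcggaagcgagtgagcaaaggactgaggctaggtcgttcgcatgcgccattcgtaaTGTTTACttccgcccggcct
Castor2: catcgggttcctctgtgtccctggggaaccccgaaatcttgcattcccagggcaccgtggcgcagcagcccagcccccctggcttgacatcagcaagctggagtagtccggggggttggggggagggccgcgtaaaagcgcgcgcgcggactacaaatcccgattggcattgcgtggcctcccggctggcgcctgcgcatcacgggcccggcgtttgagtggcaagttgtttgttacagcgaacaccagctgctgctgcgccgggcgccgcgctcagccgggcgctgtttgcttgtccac

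Across RefSeq promoters of this length 3.65% held the match on either strand. Among tested genes with a promoter sequence the share was 3.12% (321 of 10296), among genes called in MIGIRKO 3.24%, and among opposed genes 3.7% (20 of 541), with 7.6% for those higher in MIGIRKO (13 of 171) and 1.89% for those lower (7 of 370). Of the genes called lower in QKO 6 of 41 held it (14.6%). Genes had a mean of 1.28 promoters over all tested and 1.36 among opposed genes higher in MIGIRKO. Among genes with 1 promoter the share was 2.49% over all tested genes. It was 4.69% (6 of 128) for opposed genes higher in MIGIRKO and 2.11% (6 of 285) for those lower. For genes called lower in QKO it was 13.8% (4 of 29). No test compared these shares. A match describes letters, and no match says only that these letters are not in the window. Btg1, an antiproliferative gene, was 11.5 to 14.8 CPM in IRIGFRlox, 24.2 to 32.1 CPM in MIGIRKO, 13.1 and 16.0 CPM in Qlox and 10.2 to 24.5 CPM in QKO, a difference of -1.17 ± 0.32 (adjusted p = 0.03). Tfb2m, a mitochondrial transcription factor, was 21.2 to 25.2 CPM, 8.96 to 17.1 CPM, 17.1 and 15.8 CPM and 13.4 to 23.4 CPM in the same groups, a difference of 1.04 ± 0.26 (adjusted p = 0.018). Both calls were lost with the run block (0.064 and 0.073), without Qlox 1 (0.088 and 0.093) and without Qlox 2 (0.24 and 0.15).

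The best-known atrophy ligases were not called for the difference. Fbxo32, which encodes atrogin-1, was at 798, 395 and 945 CPM in IRIGFRlox, 170 to 436 CPM in MIGIRKO, 362 and 528 CPM in Qlox and 209 to 438 CPM in QKO. Its change was -1.30 in MIGIRKO and -0.73 in QKO, and the difference of 0.56 had a 95% interval of -0.31 to 1.44. Trim63, which encodes MuRF1, was 147 to 626 CPM in MIGIRKO and 168 to 536 CPM in QKO beside 574 and 1050 CPM in Qlox, with changes of -1.06 and -1.33 and an interval of -1.37 to 0.83. Neither MIGIRKO median lay above its controls. Of 17 such ligases 8 were lower and 2 higher in MIGIRKO. Asb2 (1.82 ± 0.36, adjusted p = 0.0034) and Fbxo40 (1.22 ± 0.31, adjusted p = 0.017) were opposed. Asb2 lost the call without Qlox 1, and Fbxo40 lost it without either Qlox library. Asb2, a cullin adaptor, was 144 to 248 CPM in MIGIRKO and 408 to 1030 CPM in QKO, and Fbxo40, which targets IRS1, 173 to 289 CPM and 414 to 661 CPM.

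Of 18 translation factors 4 were opposed, 3 of them called higher and 1 lower for the difference. Of 29 autophagy and lysosome genes 2 were opposed, near the 5.25% opposed over all tested genes. Eef1a2, the adult muscle form of elongation factor 1A, was 255 to 534 CPM in MIGIRKO and 478 to 1040 CPM in QKO (difference 1.40), and Eef1a1, its embryonic counterpart, 1290 to 2370 CPM and 444 to 1550 CPM (-1.62). Eef1a1 has many near-identical pseudogenes, so its count is uncertain. Eef2k and Ulk2, an autophagy kinase, had differences of 0.98 and 0.96, and Ctsl, a lysosomal protease, -1.28 (adjusted p = 0.047). All 5 lost the call without Qlox 1 and without Qlox 2, with adjusted p of 0.08 or more for each. None of the 32 proteasome genes, 22 genes of the ATF4 stress response or 18 clock genes was called for the difference. Over all tested genes 5.76% were called, which would be few genes in lists of these sizes.

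Genes of denervated and embryonic muscle had a median change of 2.23 in MIGIRKO and 1.15 in QKO over 20 genes. Of these 13 rose in MIGIRKO, 1 was called higher in QKO, and 1, Dach2, was opposed. Dach2, a repressor of the acetylcholine receptor program, fell by 5.78 to 2 counts in all 6 MIGIRKO libraries. It had 64 counts in IRIGFRlox and 35 in QKO (adjusted p of the difference 0.012). The Dach2 call was lost without either Qlox library and with limma-voom. Chrna1, the acetylcholine receptor alpha subunit, was 17.1 to 22.4 CPM in IRIGFRlox, 53.8 to 313 CPM in MIGIRKO (median 279), 26.2 and 18.8 CPM in Qlox and 23.7 to 92.3 CPM in QKO (median 43.6). Its difference of -2.36 ± 0.84 was not called (adjusted p = 0.092), nor was that of Chrnb1 (-1.10, adjusted p = 0.081; 0.027 with the run block). Without MIGIRKO 6 both were called, at 0.034 and 0.028.

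Amd1, the decarboxylase that feeds polyamine synthesis, fell by 3.89 in MIGIRKO, to 27.6 to 96.8 CPM from 546 to 920 CPM, and was 80.5 to 472 CPM in QKO beside 864 and 646 CPM in Qlox. Its difference of 2.48 ± 0.77 was not called (adjusted p = 0.053), while that of Amd2, a near-identical copy whose reads cannot be told apart with certainty, was (2.18, adjusted p = 0.046), a call lost without Qlox 1 (0.14) and without Qlox 2 (0.25). The QKO median lay between MIGIRKO and the controls for both genes, but libraries overlapped. QKO 4 (80.5 CPM of Amd1, 3.76 CPM of Amd2) lay below MIGIRKO 6 (96.8 and 4.93 CPM). For Amd2, QKO 3 (18.5 CPM) lay above IRIGFRlox 2 (17.8 CPM).

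The 31 kept genes, 0.227% of all tested, were 29 lower and 2 higher in both knockouts. Their QKO change was a median 1.17 of the MIGIRKO change. They had to be called in QKO with the same sign, which favours large QKO changes, so this ratio is a description. Insr, itself deleted, is among them. Dkk3, a secreted Wnt-pathway protein, was at 27.0, 16.3 and 23.5 CPM in IRIGFRlox, 5.34 to 8.26 CPM in MIGIRKO, 35.4 and 17.7 CPM in Qlox and 3.76 to 7.80 CPM in QKO. Both knockouts lay below all controls, with changes of -1.69 and -2.21 and a difference of -0.52 (interval -1.26 to 0.21). Kcnab1, a potassium channel subunit, fell by 2.60 and 3.06. Pde7a, a cAMP phosphodiesterase, fell by 1.89 and 1.31, with 130 to 138 CPM in IRIGFRlox, 23.5 to 47.8 CPM in MIGIRKO, 141 and 146 CPM in Qlox and 44.6 to 75.7 CPM in QKO.

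Sorbs2, a Z-disc adaptor, fell by 1.84 and 1.32, and Mlxip, which encodes the glucose-sensing factor MondoA, by 1.08 and 0.93. The direct comparison put QKO above MIGIRKO for Sorbs2 (0.79, adjusted p = 0.0011), Mlxip (0.64, 0.00016), Pde7a (0.67, 0.0072) and Kif5c (0.82, 0.0096), and below it for Mfhas1 (-0.74, 0.0035), Insr (-0.50, 0.0022) and Fdft1 (-0.58, 0.0088). With all 12 floxed libraries as control the difference of effects is again QKO against MIGIRKO, so its calls for these 7 genes are no separate result. Fdft1, squalene synthase, was the only kept gene of 21 in cholesterol synthesis, at -0.52 and -1.11. The 2 genes that rose in both were Mfhas1 (1.78 and 1.62) and Kif5c, a kinesin heavy chain, which was 1.15 to 1.92 CPM in IRIGFRlox, 4.01 to 5.92 CPM in MIGIRKO, 1.97 and 1.83 CPM in Qlox and 4.54 to 13.9 CPM in QKO. With DESeq2 the kept genes numbered 69, with all 12 floxed libraries as control 601, and without Qlox 1 or Qlox 2 they numbered 13 and 11.

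**Figure D5:**
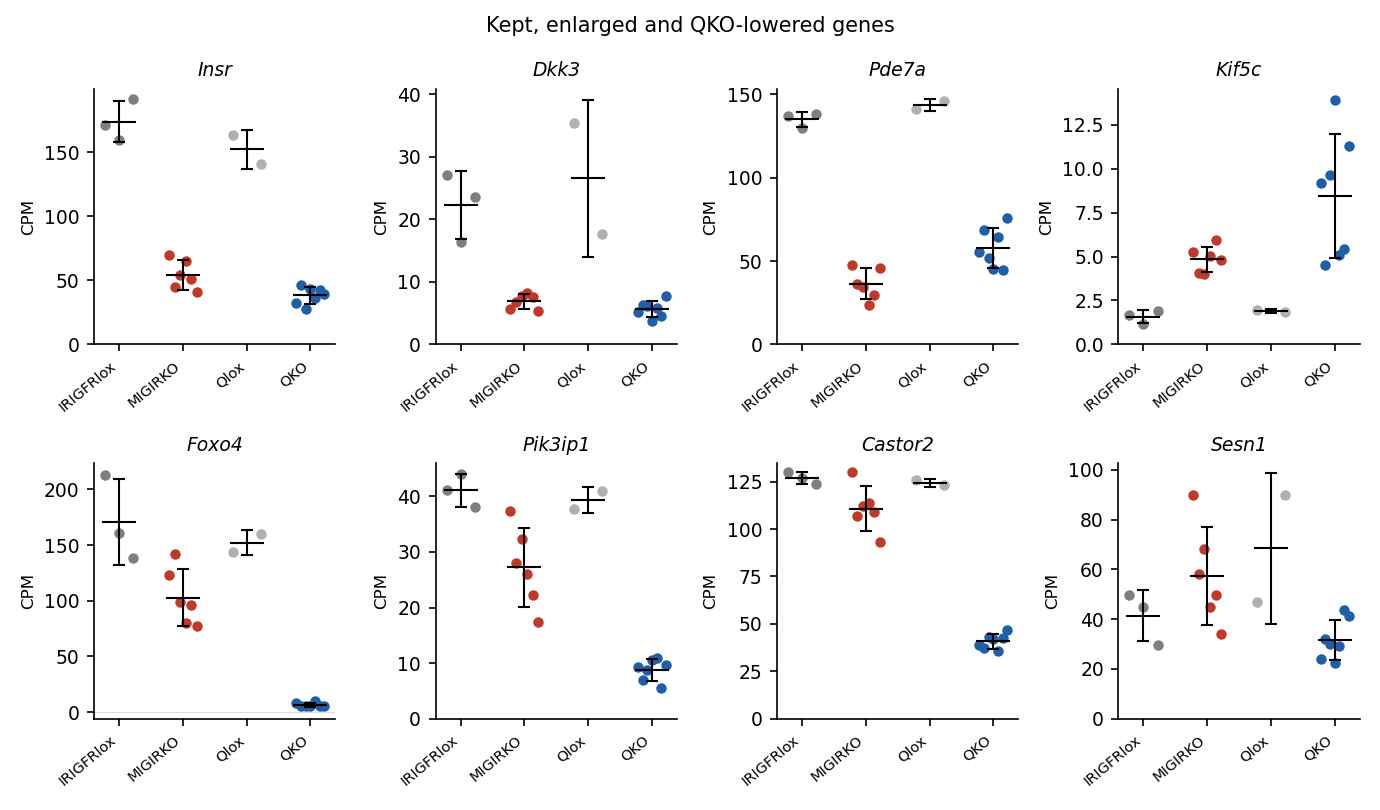
CPM in each library (points), with group mean and SD (bars). Insr, Dkk3 and Pde7a are low and Kif5c is high in both knockouts; Foxo4, Pik3ip1 and Castor2 are lowest in QKO, where Castor2 lies at 35.6 to 46.8 CPM beside 93.0 to 130 CPM in MIGIRKO; the QKO libraries of Sesn1 lie below both Qlox libraries and overlap IRIGFRlox and MIGIRKO.

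Among receptor-loss genes 4 changed further in QKO, all downward. Besides Foxo4, which is deleted there, these were Pik3ip1, an inhibitor of PI3K, Maob, a mitochondrial monoamine oxidase, and Cbfb, a partner of RUNX factors. Pik3ip1 was at 41.2, 44.0 and 38.1 CPM in IRIGFRlox, 17.4 to 37.3 CPM in MIGIRKO (median 27.1), 37.7 and 41.0 CPM in Qlox and 5.45 to 10.9 CPM in QKO (median 9.38), with changes of -0.60 and -2.19 and a difference of -1.60 ± 0.33 (adjusted p = 0.0052; 0.056 without Qlox 2). Maob changed by -0.91 and -2.45 (adjusted p of the difference 0.01; 0.11 without Qlox 1), and Cbfb by -0.49 and -1.29 (0.041; 0.22 without Qlox 1 and 0.096 with the run block).

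A further 65 genes were called for the difference without a call in MIGIRKO, 23 higher and 42 lower, and 13 of them were called in QKO. They include Castor2, Sesn1, Foxo1, Igf1r, Tnnc1 and Atp2a2 above. Gpx3, a secreted glutathione peroxidase, was 157 to 201 CPM in IRIGFRlox and 133 to 322 CPM in MIGIRKO. It was 184 and 235 CPM in Qlox and 71.2 to 151 CPM in QKO. Its QKO change was -1.0 and its difference -1.27 ± 0.33 (adjusted p = 0.022). The call was lost with the run block (0.062), with the 4 groups alone, without either Qlox library and without IRIGFRlox 1 or 3. Plet1os, counted opposite to Plet1 and so dependent on the strand setting, was 4.93 to 14.5 CPM in MIGIRKO and 0.267 to 4.14 CPM in QKO. Qlox held 7.22 and 6.42 CPM of it (difference -2.76, adjusted p = 0.011). This call was lost without either Qlox library. Other genes picked by size, Fam110a (3.86), Sass6 (2.32), Slc6a17 (-2.65) and Fam83d (-2.52), had single-digit CPM in the 4 groups, and each lost the call without Qlox 1.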

How the data were processed

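Directional RNA-seq libraries from 34 muscle samples were made with a Wafergen kit, per the labels' protocols. The deposited values were raw counts per gene, made by the authors with STAR and featureCounts on GRCm38.p4, per the submitters' processing notes, with tool versions not given in the sources used here. No pooling of replicates was stated, and 0 per-sample columns were left unused. The 8 groups were fitted together with edgeR 4.0.16 (R 4.3.3): filterByExpr by group, TMM scaling, robust quasi-likelihood fit with 1 mean per group, Benjamini-Hochberg adjustment over 13646 genes. The 34 libraries share 1 estimate of spread. Alternatives used DESeq2 1.42.0, limma-voom 3.58.1, other scalings and filters, a block for each run of adjoining library numbers, other sets of controls, and omission of each library. Nothing in the labels says that such runs were batches. Symbols were found for 45229 of 46071 gene IDs. Promoter sequences were read from RefSeq tables for GRCm38.p6.

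The comparison, the gene lists and the rule for named genes were chosen with earlier results of these data known. The rule named the deleted genes and Foxo6, the opposed, kept, enlarged and difference-only genes of largest size or smallest p at an average log2 CPM of at least 1, up to 3 members of each list by p, and the FoxO target and atrophy ligase lists. Further list members named in the text, among them the macrophage, acetylcholine receptor and translation genes, and the 4 promoters were chosen after their values were seen. Some genes that the rule picks are not reported here. Counts were simulated for this difference of effects over 13216 genes, with equal group means and changes in QKO only. There the procedure recovered 11 of 65 genes changed by 2-fold and 42 of 64 changed by 4-fold. It called 2 unchanged genes.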

Additional observations from a re-analysis of the deposited data

Results flagged for a closer look

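In 208 groups of 4 to 10 libraries, 23 held a highest or lowest CPM that stood far from the other values of its group. Chance gives about 1 in 20 groups. Of the 23 values, 9 were in MIGIRKO 6 and 7 in QKO 6.

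MIGIRKO 6 lay toward the controls in Igf2 (69.8 CPM), Btnl7-ps (0.685 CPM), Slc15a5 (0.959 CPM), Cdh4 (5.89 CPM), Esrrb (3.83 CPM), Mb (490 CPM), Trim63 (626 CPM), Amd2 (4.93 CPM) and Mfhas1 (25.3 CPM). QKO 6 stood high in the macrophage genes Csf1r (161 CPM), C1qa (86.0 CPM) and C1qb (68.6 CPM), in Btg1 (24.5 CPM) and in Fam83d (1.82 CPM). It stood low in Dlat (144 CPM) and Eef2k (88.8 CPM). The other high values were Pdk4 (2000 CPM), Chrnb1 (59.1 CPM) and Plet1os (4.14 CPM) in QKO 4, Ndrg1 (50.3 CPM) and Fbxo32 (438 CPM) in QKO 3 and Fam83d (4.47 CPM) in MIGIRKO 1. Ncmap, a myelin gene, was at 0 CPM in QKO 5, the library with the fewest counts.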

How the results depend on the processing

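No paired analysis was possible because littermates cannot be matched from the labels. The lone Qlox sample left by an omission was assumed to vary like the other groups. The main limit was the 2 Qlox libraries, and QKO 5 had the lowest depth. Leaving out 1 library gave 113 to 1384 genes called for the difference, 3109 to 5016 in MIGIRKO, 21 to 86 in QKO, 100 to 1282 opposed and 11 to 40 kept.

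The genes called for the difference numbered 1404 with plain library totals, 498 without a filter on low counts, 502 with the 4 groups alone, 3999 against all 12 floxed libraries, 1342 without MIRKO 4 and MIGIRKO 6, and 1352 without QKO 5 and QKO 6. In the same order the opposed genes numbered 1330, 452, 468, 3314, 1233 and 1226. Against all 12 floxed libraries the same control is taken from both knockouts and cancels from the difference. That setting is therefore QKO against MIGIRKO, for which the main fit called 4116 genes. Plain totals gave 7002 genes in MIGIRKO, 6314 higher and 688 lower. Genes called in QKO were 127 with DESeq2, 1084 with all floxed libraries and 135 without MIRKO 4 and MIGIRKO 6. Kept genes were 69 with DESeq2, 19 with plain totals, 601 with all floxed libraries and 61 without MIRKO 4 and MIGIRKO 6. The cause was not tested. With the run block 539 were called for the difference, and 397 of the 786 were called again. Of the 786, 2 changed sign with all floxed libraries and 0 in the other settings.

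Some differences that were not called changed sign. Foxo3 was 0.04 with all floxed libraries, and -0.29 to 0.08 with 1 library left out (0.08 without Qlox 2 or IRIGFRlox 3). Fbxo32 was -0.11 with all floxed libraries. Trim63 was 0.00 with the run block, 0.10 with all floxed libraries, 0.08 without MIRKO 4 and MIGIRKO 6, and -0.64 to 0.24 with 1 library left out, above 0 without Qlox 2 and MIGIRKO 6 (0.08). Dkk3 was -0.95 to 0.05 with 1 library left out, above 0 without Qlox 1. Mlxip was -0.28 with plain totals and 0.00 (without IRIGFRlox 1) to 0.23 with 1 library left out. With all floxed libraries the difference leaves out the gap between Qlox and IRIGFRlox, so it is another quantity. For these reversals too the cause was not tested.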
